A study of Mus musculus with 16 samples.

Results

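The genes of synaptic vesicles and of the SNARE fusion machinery were examined in RNA sequencing of mouse retina. Members were taken by their symbols: the synaptotagmins (Syt), the vesicle-associated membrane proteins (Vamp), the syntaxins (Stx) and syntaxin binding proteins (Stxbp), the complexins (Cplx), the Sv2 and Rab3 genes, Snap23, Snap25, Snap29, the synapsins, synaptophysin (Syp), Nsf, Napa, Napb and the vesicular transporters Slc17a7 and Slc32a1. The rule took 80 of the 25905 genes in the deposited table. Of these, 12 are Rab genes numbered from Rab30 to Rab39. They share the first letters of Rab3 but are not among Rab3a to Rab3d, and they are described apart. The retinas came from male wild type C57BL/6 mice, 8 kept as ground control on Earth and 8 from space flight aboard the International Space Station. The labelled age of 10 weeks is that of the flight mice at launch, and their retinas were taken later, after the mission and the return to Earth. Each of the 16 libraries was made from total RNA of the right retina.

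Neurons release transmitter when a SNARE protein on the vesicle winds together with SNAREs on the plasma membrane and draws both membranes into fusion. Synaptotagmins sense the calcium that triggers this step, complexins hold the assembled SNAREs ready, Munc18 proteins guide the assembly, and NSF with its SNAP adaptors takes spent complexes apart. In the retina, photoreceptors and bipolar cells release glutamate continuously at ribbon synapses, which use their own complexins and syntaxin, while amacrine cells have conventional synapses that release GABA or glycine.

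The deposited level of a gene is the authors' mean normalized count over all 16 libraries, both groups pooled, and it therefore carries no SD or n. The columns of the count tables could not be tied to a mouse or a group by name, so ground control and space flight were not compared, and depth per library is not analysed here. Levels of different genes were compared per kilobase of the longest reference transcript, as a description with no test against the spread between mice. In a whole tissue, the number of cells that hold a transcript and the amount in each cell cannot be told apart.

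The markers of the retina were present. Gnat1, which encodes a subunit of the rod G protein, had a mean normalized count of 154477. All 4 rod, 4 cone, 4 bipolar and 3 horizontal cell markers were at 10 or more, the minimum at which a gene was taken as present. So were 3 of 4 amacrine cell markers, while the other, Tfap2b, is not analysed here. Opn1sw, the short-wave cone pigment, stood at 2800 and the bipolar cell gene Grm6, a glutamate receptor, at 964. Of the ganglion cell markers 3 of 4 and of the Müller glia markers 2 of 3 were present, and the genes below 10, Rbpms at 5.53 and Rlbp1 at 1.39, were counted under several transcripts. The rod gene Nrl, counted under 2 transcripts, was present at 88.9. Markers of tissue next to the retina were also present: all 3 lens crystallins, led by Cryaa at 898, and 2 of 3 pigment epithelium genes, led by Ttr at 540. The other pigment epithelium gene, Best1, was counted under 1 transcript and stood at 2.72. The 3 muscle markers were all below 10, with Acta1 highest at 8.94. Of the blood markers, Hbb-b1 was at 10.7, Hba-a1 at 0.213, and Alas2 was listed at 0. All 3 markers of cerebral cortex neurons were present, with Neurod6 lowest at 12.2. The share of these other tissues in the levels below was not tested.

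Of the 80 members, 65 were present and 49 reached a mean normalized count of 100. Among the 19945 genes whose counted transcripts all had curated RefSeq identifiers, 11227 were present and 7583 reached 100. The median mean normalized count was 174 over the members and 26.3 over those genes. Together the members made up 1.52% of the summed levels of the table, and the 5 highest, Snap25, Slc17a7, Syt1, Vamp2 and Syp, made up 60.1% of the members' sum. All 17 members at 1000 or more were counted under 1 RefSeq transcript.

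**Figure D1:**
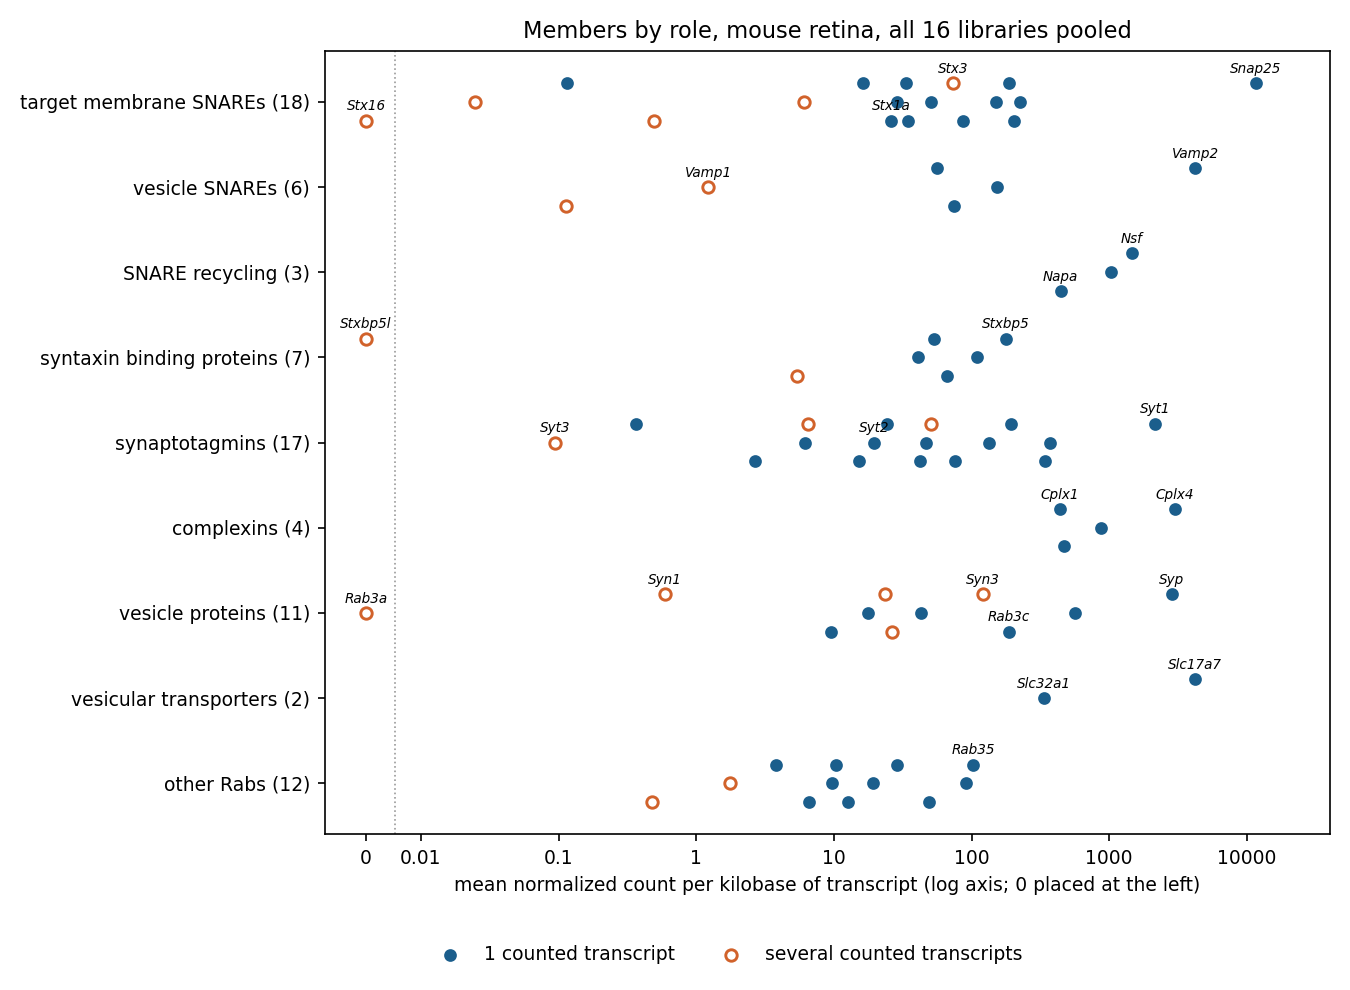
Level of each of the 80 members per kilobase of transcript on a log axis, in rows by role, with the number of genes in brackets. Filled points are genes counted under 1 transcript and open points genes counted under several; the left-most position holds genes listed at 0. Snap25 lies furthest right at 11557, and all 3 genes listed at 0 are open points.

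The syntaxins and Snap genes were led by Snap25, the partner of syntaxin in fusion at the synapse. Its mean normalized count was 24454, or 11557 per kilobase, above 99.96% of the 16676 genes with 1 counted transcript and a known length. It ranked first among the members per kilobase, per codon and with no division by length. Stx1a, a syntaxin of conventional synapses, had 26.1 per kilobase. Stx12, a syntaxin of endosomes, had 205 per kilobase. Snap29, a relative of Snap25 that acts on internal membranes, had 50.7 per kilobase, 228-fold below Snap25, with a log2 ratio of Snap25 over Snap29 of 7.83 per kilobase and 7.13 with no division by length. The endosomal Stx7 and Stx6 had 151 and 86.5 per kilobase, and Stx4a, which serves secretion in most cell types, had 188. Stx3, of which a splice form serves ribbon synapses, was counted under 3 transcripts and stood at 73.7 per kilobase.

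Vamp2, the main vesicle SNARE of brain synapses, had a mean normalized count of 9260 and 4200 per kilobase. The next in this list were Vamp4, found on the Golgi and endosomes, and Vamp8, found on late endosomes, with 153 and 74.4 per kilobase. Vamp2 was thus 27.4-fold above Vamp4 in level per kilobase and 74.5-fold above Vamp3, which serves recycling endosomes. The log2 ratio of Vamp2 over Vamp3 was 6.22 per kilobase and 5.61 per codon. Vamp1, the closest relative of Vamp2, was counted under 2 transcripts and had 1.223 per kilobase.

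The genes that recycle SNAREs were all present and all counted under 1 transcript. Nsf, the ATPase that separates the complex, had 1463 per kilobase. Its adaptors Napb and Napa had 1034 and 444 per kilobase, so that the neuronal Napb was 2.33-fold higher. The log2 ratio of Napb over Napa was 1.219 per kilobase, 2.01 per codon and 2.03 with no division by length. Nsf was above Napb per kilobase, with a log2 ratio of 0.50, but per codon this ratio was -1.05.

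Among the 7 syntaxin binding proteins, Stxbp5 (tomosyn), which holds syntaxin away from the vesicle SNARE, had the highest mean normalized count at 1577 and 179 per kilobase. Stxbp4 and Stxbp3a, the latter a Munc18 of non-neuronal secretion, had 66.0 and 110 per kilobase. Stxbp5l, a second tomosyn, was listed at 0.

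Of the 17 synaptotagmins, 14 were present. Syt1, the calcium sensor of fast release, had a mean normalized count of 10447 and 2168 per kilobase. Syt4 and Syt11, relatives with a changed calcium-binding domain, followed at 372 and 341 per kilobase, and this order turned on every other scale tried: the log2 ratio of Syt11 over Syt4 was 0.23 per codon, 0.24 with no division by length and 0.013 per kilobase of the counted transcript. Syt13 and Syt9 had 195 and 134 per kilobase. Syt2, a fast sensor like Syt1, had 19.5 per kilobase, 111-fold below Syt1. The log2 ratio of Syt1 over Syt2 was 6.80 on this scale, 6.29 per codon, 6.28 with no division by length and 5.80 per kilobase of the counted transcript. Syt3, counted under 2 transcripts, was among the lowest members at 0.0942 per kilobase, while Syt8, counted under 1, was also low at 0.363.

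All 4 complexins were present, all under 1 transcript. Cplx4 and Cplx3, the complexins of ribbon synapses, had 3012 and 874 per kilobase, and Cplx4 was 3.44-fold higher. Cplx2 and Cplx1, known from conventional synapses, had 469 and 438. The log2 ratio of Cplx2 over Cplx1 was 0.10 per kilobase, but 1.27 both per codon and with no division by length. Cplx3 exceeded Cplx2 per kilobase with a log2 ratio of 0.90, but per codon this ratio was -0.13. Cplx4 was above Cplx3 on each scale tried, with a log2 ratio of 1.78 per kilobase, 1.11 per codon and 1.13 with no division by length.

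The vesicle proteins were led by Syp, an abundant membrane protein of synaptic vesicles, with 2836 per kilobase. Sv2a, a vesicle glycoprotein found at most synapses, had 565 per kilobase and its paralog Sv2c had 43.0, a 13.1-fold difference. The log2 ratio of Sv2a over Sv2c was 3.72 per kilobase, 2.62 per codon and 2.65 with no division by length. Sv2b, counted under 2 transcripts, had 26.5. Of the Rab3 GTPases, which tether vesicles near the release site, Rab3c had 186 per kilobase, Rab3b 17.6 and Rab3d 9.59. Rab3a, counted under 2 transcripts, was listed at 0. The synapsins, which cluster vesicles at conventional synapses, were each counted under 2 transcripts, and per kilobase Syn3 had 120, Syn2 23.4 and Syn1 0.596.

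Both vesicular transporters were present. Slc17a7 fills vesicles of photoreceptors and bipolar cells with glutamate and had a mean normalized count of 12273, or 4210 per kilobase. Slc32a1 fills vesicles of amacrine and horizontal cells with GABA and glycine and had 338 per kilobase, 12.5-fold less. Among the 12 Rab30 to Rab39 genes, which act in membrane traffic, 9 were present. The 3 with the highest mean normalized counts, undivided by length, were Rab39b at 311, Rab35 at 291 and Rab30 at 271. Per kilobase they had 91.4, 103 and 28.6, and Rab33b, at 49.4, was above Rab30.

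The lowest levels of the family went together with how many transcripts a gene was counted under. The deposited counts were made by RefSeq transcript, with 107 transcripts for the members: 61 members had 1 and 19 had several. The median level was 74.4 per kilobase for the members with 1 transcript and 1.223 for those with several, a 60.8-fold difference. Because the way counts of several transcripts were joined is not given, the level of such a gene may be of 1 transcript or of their sum. Of the members with 1 transcript, 57 were present, against 8 of the 19 with several. All 3 members listed at 0, Rab3a, Stx16 and Stxbp5l, had several transcripts. The lowest member above 0 was Stx11, with 3 transcripts and a mean normalized count of 0.103. Low levels were not limited to these genes, since Stx19, counted under 1 transcript, had 0.115 per kilobase.

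The same order of medians was found over all genes. Of the 16959 genes counted under 1 curated transcript, 61.1% were present, and the 16676 with a known length had a median of 19.1 per kilobase. Among genes with a known length, the 2053 with 2 transcripts had a median of 0.476 per kilobase, and the 910 with 3 or more had 0.379. Among the 2986 genes with 2 or more, 28.9% were present. Members had several transcripts more often than those genes at large, 23.8% against 14.97%, as a description with no test.

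**Figure D2:**
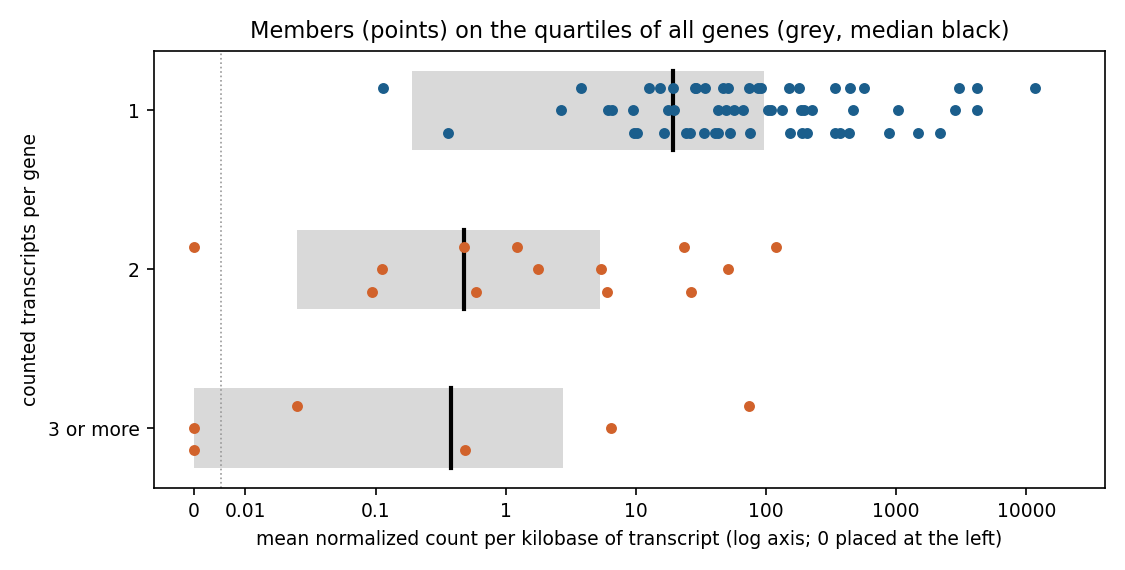
Members (points) and all genes with curated RefSeq transcripts and a known length (grey bars from the lower to the upper quartile, black line at the median) by the number of transcripts a gene was counted under, as level per kilobase on a log axis. The medians of all genes are 19.1, 0.476 and 0.379, and members with 1 transcript lie mostly to the right of their median.

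Transcripts of a gene share bases to an extent that differs between genes. The bases that belong to exactly 1 of the counted transcripts were taken from the GENCODE models paired with each RefSeq entry. All 107 transcripts of the members were paired. For 14 of the 19 members with several, each entry had a model of its own. For the other 5, Rab3a, Stx16, Stx11, Syt3 and Vamp5, entries shared a model and no private bases could be computed. Without these 5, the difference between the medians per kilobase of members with 1 transcript and with several was 13.0-fold. Snap23 had 53 private bases of 2756, with 33 in the longest stretch, less than the read length of 75 bases, and a level of 0.490 per kilobase. Syn1 had 128 of 3299, and its longest stretch was 86. Vamp1 had 585 of 3184, with 412 in the longest stretch. At the other end, Syn3 had 4524 of 5445 private bases, Stx3 3449 of 4521, Syn2 3490 of 5026 and Syt15 2942 of 4183. These 4 were the only ones of the 14 whose longest stretch reached 1000 bases. Their median was 62.3 per kilobase, against 3.58 for the 8 of the 14 with a longest stretch from 300 up to 1000.

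The coding bases that set these transcripts apart can be seen for 2 of the genes. They are shown because a read inside shared bases overlaps more than 1 counted transcript. Each line below gives, 5′ to 3′ in the direction of transcription, 20 shared bases in lower case and then, in capitals, the longest run of coding bases that only 1 counted transcript holds. Sequences and positions are those of GENCODE on GRCm38, a later build than the one the authors mapped to.

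Syn1: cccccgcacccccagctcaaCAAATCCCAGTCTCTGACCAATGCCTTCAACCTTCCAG
Stx3: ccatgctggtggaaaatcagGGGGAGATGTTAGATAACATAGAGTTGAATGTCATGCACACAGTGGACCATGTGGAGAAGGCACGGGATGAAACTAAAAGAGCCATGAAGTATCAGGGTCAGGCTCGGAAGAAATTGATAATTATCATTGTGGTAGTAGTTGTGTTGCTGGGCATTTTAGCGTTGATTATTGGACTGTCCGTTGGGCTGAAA

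The Syn1 run is 38 bases at chrX:20861572-20861609 on the minus strand, shorter than a read, and the other Syn1 transcript begins this exon 38 bases further on. The Stx3 run is 192 bases in 2 coding exons on the minus strand, at chr19:11783026-11783136 and chr19:11781600-11781680, and it holds the end of the coding sequence. Whether this transcript or another encodes the form found at ribbon synapses was not determined here. The levels of these genes were 0.596 per kilobase for Syn1 and 73.7 for Stx3.

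Over all 2401 genes with several curated transcripts and a model for each, levels were higher where the longest private stretch was longer. The 280 genes whose longest stretch was under 75 bases had a median of 0, and 1.79% of them were present. From 75 up to 300, from 300 up to 1000, and at 1000 or more bases, the medians per kilobase, over the 2390 of these genes with a known length, were 0.320, 1.10 and 3.07, and the shares present were 12.3%, 36.9% and 56.0%. Whether the count of transcripts, the private bases or the amount of RNA sets the level of any 1 member was not tested.

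**Figure D3:**
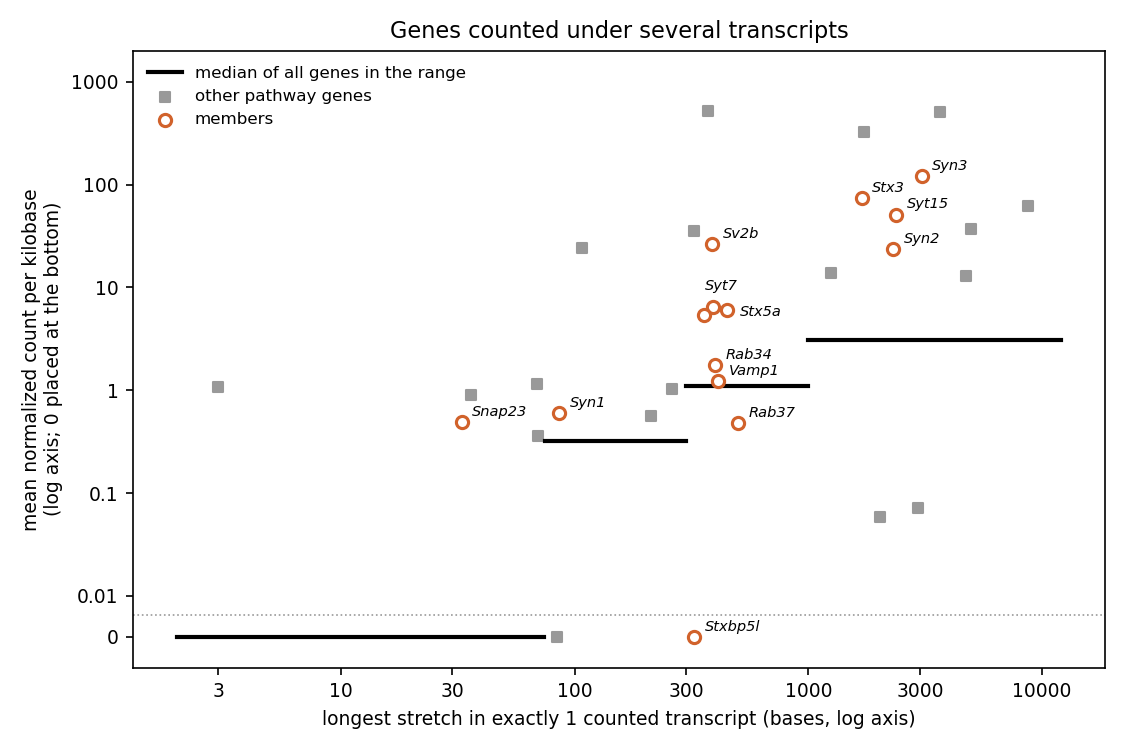
Level per kilobase against the longest stretch of bases held by exactly 1 counted transcript, both on log axes, for the 14 members (open circles) and for other pathway genes (grey squares) with several transcripts; black lines are medians, by range, of all 2390 such genes with a known length, and genes listed at 0 stand at the bottom. Syn3, Stx3, Syt15 and Syn2 lie at the upper right, and Stxbp5l at 0 and Rab37 lie below the median of their range.

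The remaining genes of the vesicle cycle were taken from 3 fixed lists, and the genes named are the 3 of each list with the highest mean normalized counts, undivided by length. At the release site, where vesicles dock, 17 of 19 genes were present. They were Rims2, a scaffold of the active zone, with 1299 per kilobase, Bsn (bassoon), which anchors the ribbon, with 183, and Rph3a, which binds Rab3 on vesicles, with 701. Per kilobase, Ctbp2 at 325 and Doc2b at 213 were above Bsn. Of the 26 retrieval genes, which take vesicle membrane back after fusion, 21 were present. Hspa8, the chaperone that uncoats vesicles, had 3727 per kilobase, Dnm1, the dynamin that cuts them free, had 1042, and Cltc, the clathrin heavy chain, had 679. Per kilobase, Ap2m1 at 1008.5 and Snap91 at 923 were among the genes above Cltc. Of the 19 genes of vesicle filling and other vesicle proteins 17 were present, led by the proton pump subunits Atp6v0c, Atp6v0a1 and Atp6v1b2 with 3506, 842 and 1141 per kilobase.

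In each of the 3 lists the genes with 1 transcript had the higher median per kilobase: 139 against 7.03 at the release site, 451 against 7.39 for retrieval, and 373 against 17.7 for filling. All 44 genes of these lists with 1 transcript were present. The following genes were chosen after their values were seen. Rims1, with 5 transcripts, was listed at 0, and so was Dnajc5b, with 3. Ap2b1 and Sypl were at 0.0589 and 0.0714 per kilobase although their longest private stretches were 2023 and 2956 bases. In the other direction, Pacsin1 had 523 per kilobase with a longest stretch of 371 bases, and Syngr1 had 505 with 3647. Ctbp2, which gives rise to the ribbon protein RIBEYE, had 325 with 1731.

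**Figure D4:**
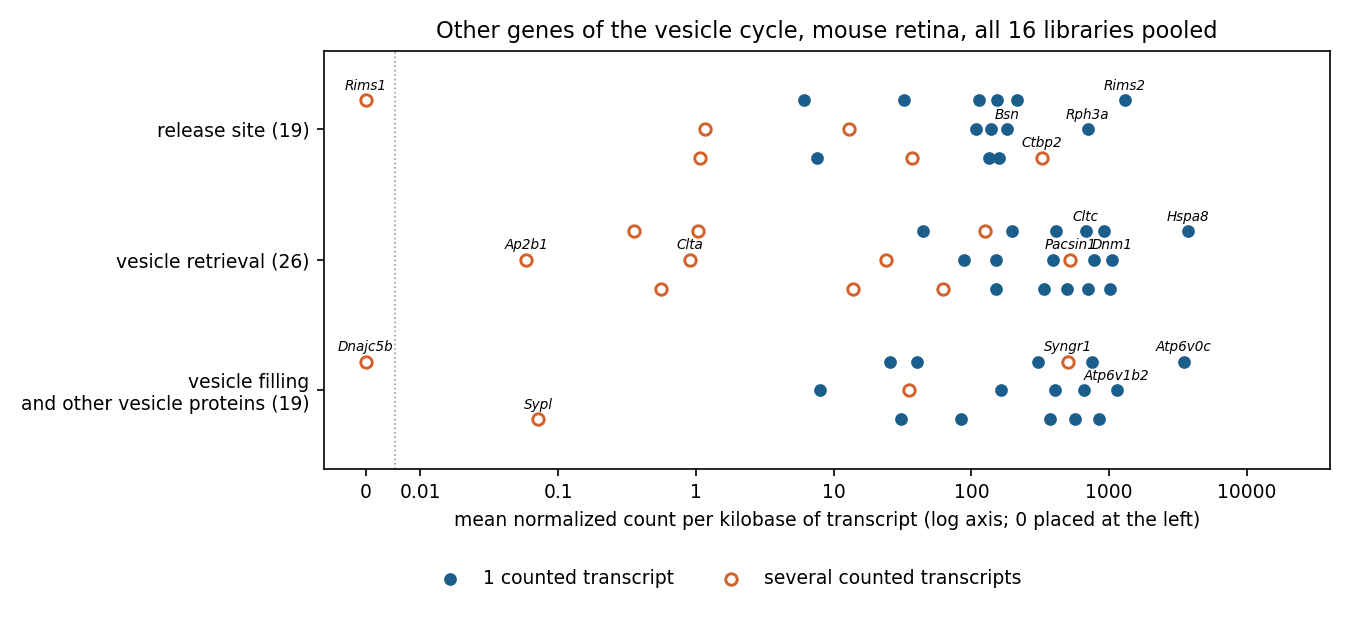
Level per kilobase of the other genes of the vesicle cycle on a log axis, in rows by list with the number of genes in brackets; filled points are genes counted under 1 transcript, open points genes counted under several, and genes listed at 0 stand at the left. Rims2 at 1299, Hspa8 at 3727 and Atp6v0c at 3506 lead the 3 lists.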

How the data were processed

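Stranded libraries were made from total RNA of 16 retinas, 8 per group. Per the labels and the methods of the study, the authors processed reads of 75 bases by trimming in Trimmomatic, mapping in TopHat2 (NCBI mouse build, earlier than GRCm38), counting in HTSeq and analysis in DESeq2 1.22.2 under R 3.5.1. The signal used here is a deposited mean: for each gene, the authors scaled the counts of every library by its size factor and averaged them over both groups. How the authors joined counts of several RefSeq transcripts under 1 symbol is not given in the sources used here. The authors' table also holds fold changes between the groups, their standard errors, test statistics and p-values, none of which was used. The 2 deposited count tables each hold 16 columns with laboratory codes that match no label, so 32 columns of values were left out and only their RefSeq identifiers and symbols were read. The planned test between the groups was therefore not run, and library totals, spread between mice and the precision they give are not analysed here.

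Levels, ranks and medians were computed with Python 3.11.15, pandas 2.3.3 and numpy 2.4.6, and figures drawn with matplotlib 3.10.9. A gene was called present at a mean normalized count of 10 or more, with 1 and 100 as alternatives. Lengths are those of the longest protein-coding or counted transcript in GENCODE M21, with coding length in codons and no length as alternatives. Of 24866 curated RefSeq transcripts in the count table, 98.1% were paired with a GENCODE transcript. The count of private bases was checked on small exon sets written by hand with known answers, none of them with 3 or more transcripts. Named genes are the 3 highest by mean normalized count in each role or list, a fixed set of well known synaptic members, the lowest member and those at 0; others serve as neighbours in the same role. Some genes that this rule takes are not reported here. Members and lists were chosen with earlier results of these data known.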

Additional observations from a re-analysis of the deposited data

How the results depend on the processing

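The number of members called present was 65 at a mean normalized count of 10, 72 at 1 and 49 at 100. Chosen after seeing the data, the count was 57 with 1 transcript alone and 56 without the Rab30 to Rab39 genes. The log2 ratio of medians between members with 1 transcript and with several was 5.93 per kilobase, 6.36 per codon and 6.51 with no division by length. Also chosen after seeing the data, it was 6.49 without the Rab30 to Rab39 genes and 3.70 when the 5 members without private bases were left out. With the remaining 14 then divided by their private bases alone, it was 1.54, where the divisor is shorter by construction.

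Of 17 pairs of members, 14 kept their direction per codon, with no division by length and per kilobase of the counted transcript, the last chosen after seeing the data. Syt11 over Syt4 had log2 ratios of 0.23, 0.24 and 0.013 on these scales, against -0.12 per kilobase. Per codon, Cplx3 over Cplx2 was -0.13 and Nsf over Napb was -1.05. The cause was not tested.

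No paired analysis was possible because the columns of values carry no replicate number or group. For the same reason the alternatives chosen for the flight comparison (DESeq2, no filter on low counts, the replicate block, and 2 stricter thresholds of the adjusted p) were not run. With 1 pooled value per gene, no spread between mice limits or backs the order of any pair, and reads shared between paralogs could not be assessed.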
